A study of Mus musculus with 96 samples.

Results

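The subject here is the set of cytosolic ribosomal protein genes of the mouse hippocampus and the chromatin marks at their promoters. Members were the peaks that the deposited tables annotate as promoter and assign to a gene symbol starting with Rpl or Rps followed by a digit, with the Rps6k kinases and symbols carrying -ps left out. The rule found 74 peaks, of 22815 peaks in the 6 tables, and 62 gene symbols. H3K4me3 of NeuN+ nuclei held 61 of them among 12628 peaks, and H3K4me3 of NeuN- nuclei held 13 among 3270 peaks. No member was found among the 4132 and 1698 peaks of H3K27me3 in NeuN+ and NeuN- nuclei, or among the 775 and 312 peaks of Suz12.

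The study compared male C57BL/6N mice aged 6 months of 4 genotypes. Wild type (WT) mice were the controls, Mutyh-/- and Ogg1-/- mice lacked the named gene, and DKO mice lacked both. Ogg1 is the DNA glycosylase that removes oxidised guanine, and Mutyh removes adenine misplaced opposite it. Nuclei of the hippocampus were sorted with NeuN, a nuclear protein of most neurons, into NeuN+ and NeuN- fractions, and each was profiled by ChIP-seq for H3K4me3, H3K27me3 and Suz12, with 3 libraries per genotype, fraction and antibody. Each library was made from nuclei pooled from several animals of 1 genotype, so the spread between libraries is not the spread between animals.

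Ribosomal proteins bind ribosomal RNA and form, with it, the small subunit (Rps proteins), which reads the messenger RNA, and the large subunit (Rpl proteins), which joins amino acids. Their genes are transcribed in practically every cell at high rates, and their transcripts typically begin with a cytosine followed by a run of pyrimidines, the 5′ terminal oligopyrimidine (TOP) motif through which mTORC1 and Larp1 control their translation. H3K4me3 marks the nucleosomes flanking active or poised start sites, whereas H3K27me3 is laid down by PRC2, of which Suz12 is a core subunit, at repressed genes.

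Values were reads per peak of 401 bp divided by 1 factor per library, so levels of different peaks in a table refer to equal lengths. In the H3K4me3 libraries, 96023 to 548706 reads fell in the NeuN+ peaks and 39320 to 120004 in the NeuN- peaks. The median member held 8 to 47 reads in a NeuN+ library and 4 to 16 in a NeuN- library, so counting error is large for a single peak. A peak on chromosome 2 annotated to Lrrc4c took 25.4% to 59.3% of the reads of the NeuN- libraries, and its part in the results below was not tested. All 10 neuronal markers examined had an H3K4me3 promoter peak in NeuN+ nuclei and 0 of 10 in NeuN- nuclei. Of 20 glial and vascular markers, 3 (Mbp, Slc1a3 and Sox9) had such a peak in NeuN+ nuclei and 1 (Olig1) in NeuN- nuclei. Most defining glial markers were therefore not among the NeuN- peaks. Ogg1 had an H3K4me3 promoter peak in NeuN+ nuclei alone, with signal in all 3 Ogg1-/- libraries (6.15 to 17.9) as in WT (5.85 to 15.4). A promoter peak does not test for a deletion within the gene, and Mutyh had no peak, so neither knockout was checked by these data.

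The first question was which ribosomal protein genes carried each mark. RefSeq lists 85 coding genes that meet the naming rule in the mouse, 73 of them standard cytosolic ribosomal proteins and the others paralogs or genes that only share the name. In NeuN+ nuclei an H3K4me3 peak centre lay within 1000 bp of the start of 69 of the 73 standard genes. Of these, 56 were members by name, and the other 13 were reached by a peak with another name. The annotation gave that peak to an overlapping small RNA, to a neighbour or, for Rps27, to Rps27rt. Rpl23 was covered by a peak assigned to Snora21, Rps2 by 1 assigned to Snora78, and Rpl3, a protein near the peptidyl transferase centre, by 1 assigned to Syngr1. Rps27a, which encodes ubiquitin fused to a small-subunit protein, was covered by a peak assigned to Clhc1. For Rpl41 and Rpl7 the nearest centre lay 869 and 815 bp away and belonged to Zc3h10 and Rdh10, so these are the weakest cases. The peak named Rps27rt lay on chromosome 3 with its centre 22 bp from the start of Rps27, while the gene Rps27rt lies on chromosome 9 without a peak at its start. It is called the Rps27 peak here.

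The 4 standard genes without an H3K4me3 peak at the start in NeuN+ nuclei were Rpl10, Rpl36a, Rpl39 and Rps4x. These are the 4 X-linked standard genes, and all 69 autosomal ones had a peak. The nearest peak centres lay 11948 bp from Rpl10, which completes the large subunit, 15463 bp from Rpl36a, 24655 bp from Rpl39 and 62449 bp from Rps4x. The pattern was not particular to this family. Of all X-linked coding genes 18.5% (179 of 966) had a promoter peak in NeuN+ nuclei, against 50.8% (10496 of 20665) of autosomal ones, and in NeuN- nuclei 0 of 966 against 14.0%. In WT NeuN+ nuclei the X-linked promoter peaks also had a lower median signal, 13.8 against 24.2. Males carry a single X chromosome, and the part of copy number, mapping and peak calling in this difference was not tested. The absence of a peak therefore says that none was called, not that the mark is missing.

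Among the paralogs with restricted expression, Rpl3l of striated muscle and Rpl10l and Rpl39l of the male germ line had no H3K4me3 peak within 1000 bp of the start. Rpl22l1, Rpl7l1 and Rps27l, which are expressed more widely, were members in NeuN+ nuclei. The rule also took in Rps19bp1, which encodes a protein that binds Rps19 and is not a ribosomal protein.

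**Figure D1:**
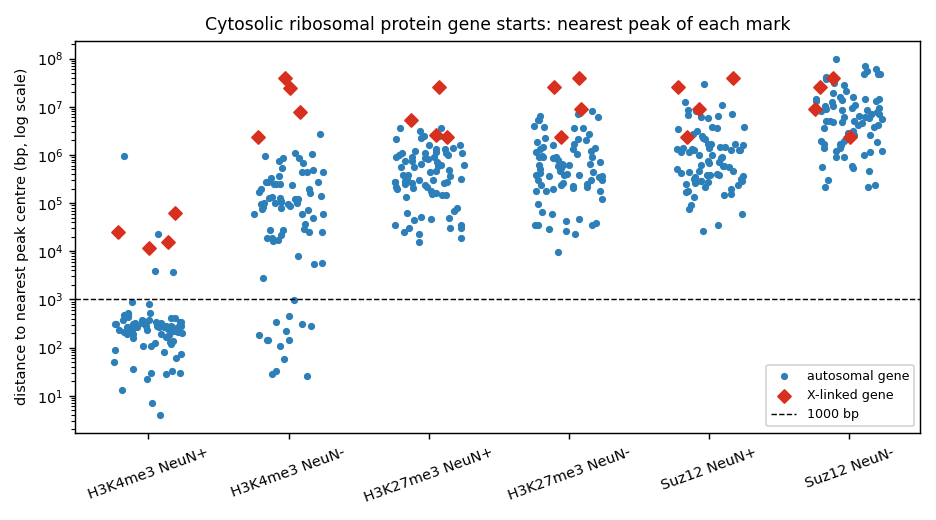
Distance in bp, on a log scale, from the start of the 82 genes meeting the naming rule that have a coding start in GENCODE to the nearest peak centre in each of the 6 tables. Each point is 1 gene, diamonds are the 4 X-linked genes, and the dashed line marks 1000 bp. Most autosomal genes lie under the line for H3K4me3 in NeuN+ nuclei, 15 genes do in NeuN- nuclei, and none does for H3K27me3 or Suz12.

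The start sequences below, from RefSeq on GRCm38.p6, run 5′ to 3′ on the gene's strand from 80 bases before the annotated start through the first 20 transcribed bases. They show 4 members whose start falls in or beside a pyrimidine run, given in capitals. Next are Rpl22 and Rpl5, the members with the highest H3K4me3, and Rpl6, the member called in NeuN- nuclei. In the sequences of these genes no such run begins within 5 bases of the start, though runs begin further upstream. The X-linked Rpl10 and Rps4x without a peak come last.
Rps6 (chr4:86857348-86857447, minus strand): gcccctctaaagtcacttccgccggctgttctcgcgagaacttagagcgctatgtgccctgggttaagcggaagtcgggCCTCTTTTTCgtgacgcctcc
Rps18 (chr17:33955646-33955745, minus strand): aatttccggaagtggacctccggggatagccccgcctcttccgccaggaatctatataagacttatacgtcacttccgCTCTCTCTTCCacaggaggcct
Rpl15 (chr14:18270967-18271066, minus strand): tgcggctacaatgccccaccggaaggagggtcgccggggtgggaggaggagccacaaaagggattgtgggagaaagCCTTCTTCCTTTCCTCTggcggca
Rpl31 (chr1:39367771-39367870, plus strand): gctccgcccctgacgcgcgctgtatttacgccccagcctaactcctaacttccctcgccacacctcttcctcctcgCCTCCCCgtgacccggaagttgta
Rpl22 (chr4:152325646-152325745, plus strand): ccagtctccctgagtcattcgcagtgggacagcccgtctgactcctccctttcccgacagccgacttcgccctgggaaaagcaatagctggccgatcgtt
Rpl5 (chr5:107900448-107900547, plus strand): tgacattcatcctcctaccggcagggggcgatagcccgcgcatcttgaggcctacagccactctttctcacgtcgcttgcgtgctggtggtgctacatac
Rpl6 (chr5:121204421-121204520, plus strand): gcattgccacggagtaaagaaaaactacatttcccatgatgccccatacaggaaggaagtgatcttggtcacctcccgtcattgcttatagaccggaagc
Rpl10 (chrX:74270736-74270835, plus strand): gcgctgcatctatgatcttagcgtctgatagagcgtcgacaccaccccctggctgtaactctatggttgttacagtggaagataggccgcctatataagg
Rps4x (chrX:102189372-102189471, minus strand): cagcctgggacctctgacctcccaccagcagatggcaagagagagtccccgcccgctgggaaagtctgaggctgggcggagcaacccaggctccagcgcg

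A C exactly at an annotated start, followed by at least 4 further pyrimidines, was found in 11 of the 48 NeuN+ members with a sequence in the table (22.9%). Runs that also extended upstream of that C were counted. The same was found at the start of 3.12% of all genes with an H3K4me3 promoter peak in NeuN+ nuclei, and of 0 of 69 mitochondrial ribosomal protein genes. When that C could lie up to 5 bases away, 25 of 48 members (52.1%) had it, against 23.5% of genes with a peak and 24.6% of mitochondrial ribosomal protein genes. Rps6 and Rps18, at WT means of 34.4 and 8.08, had such a C at the start shown, within runs that begin before it. In Rpl22 and Rpl5, the highest members, no run began within 5 bases of the start shown. Both sequences hold pyrimidine runs further upstream, so this result depends on where the start was annotated.

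The 61 NeuN+ windows were also described by their base content and short motifs. Their median G+C content was 63.6%, against 67.1% for the 11771 promoter peaks, with a median of 35 CpG dinucleotides in both. The peak centre lay downstream of the annotated start in 48 members (78.7%) and in 83.0% of all promoter peaks. Over all 61 members the median offset was 165 bp, compared with 182 bp over all promoter peaks. On either strand, the ETS factor core CCGGAAG occurred in 13 members (21.3%) and in 12.3% of all promoter peaks, the E-box CACGTG in 10 (16.4%) and 7.72%, and the YY1 core CCATNTT in 11 (18.0%) and 14.1%. The GC box GGGCGG occurred in 38 members (62.3%) and 69.3% of promoter peaks, CCAAT in 15 (24.6%) and 23.1%, and TATAAA in 1 (1.64%) and 3.15%. At the 59 mitochondrial ribosomal protein peaks of NeuN+ nuclei the ETS core occurred in 27.1%, the YY1 core in 27.1% and the E-box in 6.78%. There the GC box occurred in 52.5%, CCAAT in 27.1% and TATAAA in 6.78%. These letters are a description of the windows and were not tested as binding sites. An opposite-strand coding start lay within 1000 bp for 10 of 61 members (16.4%), among them Rpl9 with Lias and Rps18 with Vps52, and for 10.8% of all promoter peaks. Reads at such shared promoters cannot be divided between the genes.

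In WT NeuN+ nuclei the members ranged from 8.08 to 45.9 scaled reads, with a median of 26.2 beside 24.1 for all promoter peaks. They were spread over the whole distribution of promoters, with 10 members at or under percentile 25, 12 from there to percentile 50, 22 up to percentile 75 and 17 above it. Of the standard large-subunit members 22 of 33 lay above the promoter median, as did 13 of 23 small-subunit members.

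Rpl22, an RNA-binding large-subunit protein that cells can lack, had the highest WT signal, 48.9, 35.1 and 53.8 in the 3 libraries (mean 45.9 ± 9.70, SD, n = 3), at percentile 99.8 of promoter peaks. Its paralog Rpl22l1 had 39.9, 10.7 and 26.9 (25.8 ± 14.6). Next after Rpl22 came Rpl5 with 47.6, 19.5 and 38.8 (35.3 ± 14.4), a protein that with Rpl11 can bind the p53 regulator Mdm2. Rpl22 exceeded Rpl5 by less than the larger of their SDs, and the libraries of the 3 genes overlapped.

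Rps6, the small-subunit substrate of S6 kinase, had 43.7, 19.5 and 39.8 (34.4 ± 13.0). The large-subunit genes Rpl31 and Rpl32 followed with means of 34.3 ± 13.6 and 33.8 ± 8.29. At the other end lay Rps18, a protein of the small-subunit head, with 9.004, 8.78 and 6.46 (8.08 ± 1.41), at percentile 2.68. Its 3 libraries fell below all WT libraries of these highest genes.

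Also among the lowest were Rpl15 with 11.4 ± 4.70, Rpl7l1 with 14.4 ± 4.28 and Rpl7a with 15.5 ± 3.496. Of the other genes given for their roles, Rpl11 had 29.7 ± 8.58, Rps3 31.3 ± 6.87 and Rps19, a gene mutated in Diamond-Blackfan anaemia, 28.5 ± 15.7. The Rps27 peak had 29.1 ± 6.21 and its paralog Rps27l 29.3 ± 8.66. In the order of means, none of the 60 steps between neighbours exceeded the larger SD of the pair, so only the ends of the order are separated. Over the 61 members the WT signal went with the CpG count of the window (Spearman's rho 0.34), as it did over all 11771 promoter peaks (0.38). These points share libraries, and the coefficients are descriptions.

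**Figure D2:**
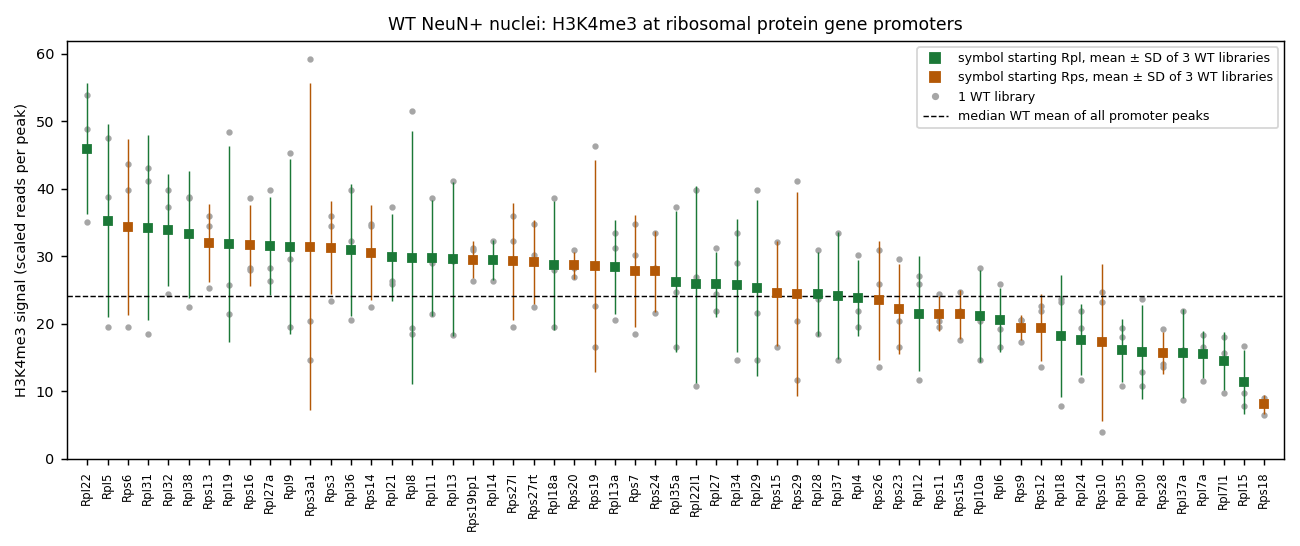
H3K4me3 signal in scaled reads per peak at 59 of the 61 members in WT NeuN+ nuclei, ordered by mean. Squares and bars are the mean ± SD of 3 libraries, grey points the libraries, and the dashed line the median of all promoter peaks (24.1). Means fall from Rpl22 (45.9) to Rps18 (8.08), with the widest gap between Rpl22 and Rpl5 (35.3), and neighbouring bars overlap.

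In NeuN- nuclei 13 members had a peak, among them Rpl4, Rpl5, Rpl6, Rpl9, Rpl10a, Rpl11, Rpl23, Rpl30, Rps3a1, Rps13, Rps14 and Rps27 (named Rps27rt). Of these, 12 were also members in NeuN+ nuclei, and all 12 pairs of windows overlapped. They made up 19.7% of the 61 NeuN+ members, while 24.6% of all NeuN+ promoter peaks were overlapped by a NeuN- promoter peak. The 12 had a median WT signal of 29.4 in NeuN+ nuclei, and the 49 members without a NeuN- peak had 25.8. Levels were not compared across fractions, because the tables were scaled separately.

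Within WT NeuN- nuclei the median of the members was 7.30 beside 8.88 for all promoter peaks, and 5 of 13 stood at or under percentile 25. Rpl10a, a large-subunit protein of the stalk that contacts transfer RNA, was highest with 22.1, 11.03 and 11.8 (15.0 ± 6.19), at percentile 94.9. Rpl5 followed with 11.2 ± 3.03, then Rpl4 with 9.27 ± 8.16, Rpl11 with 9.20 ± 2.00 and Rpl30 with 8.80 ± 5.74. Rpl9 was lowest with 1.38, 3.94 and 2.36 (2.56 ± 1.29), from 1 to 5 reads. Also low were Rpl6 with 5.12 ± 5.33, Rps3a1 with 5.39 ± 4.67 and Rpl23 with 6.44 ± 5.74. The 12 steps between neighbours were all smaller than the larger SD.

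The main comparisons asked whether loss of Mutyh, Ogg1 or both altered the mark at these promoters. Each knockout was compared with WT by limma on log2(value + 1), in a fit of all 12 libraries of a table. A peak counted as differentially enriched when its unadjusted p was below 0.05 and its log2 fold change was beyond 0.5 in either direction. In NeuN+ nuclei this called 0.911% of all peaks in Mutyh-/-, 0.966% in Ogg1-/- and 1.46% in DKO. It called 0 of the 61 members in each of the 3 comparisons, and 0 members had an unadjusted p under 0.05 in limma. A count of 0 is near those background shares for a list of this length. Other scalings gave more calls in DKO, where limma called 5 members with TMM factors (5.57% of all peaks) and 5 with cyclic loess (5.67%). There edgeR with TMM factors called 2 (3.88%), DESeq2 2 (2.81%) and edgeR with the authors' factors 1 (0.824%). Adjusted over all 12628 peaks, the smallest p of a member was 1.00 in limma in each comparison.

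The members' log2 fold changes centred near those of all peaks. Their median was -0.14 in Mutyh-/- (all peaks -0.07), with 42 of 61 below 0 and 19 above (42.3% of all peaks above). In Ogg1-/- it was 0.03 (all peaks 0.08), with 36 above 0 (58.7% of all peaks above). In DKO it was -0.04 (all peaks -0.02), with 33 below 0 and 28 above (47.8% of all peaks above). The 3 comparisons share the WT libraries. The median 95% confidence interval of a member reached 0.90 to either side, and it stayed within 1 log2 unit of 0 for 12, 14 and 13 of the 61 members, so changes of that size are not excluded for most members.

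Rpl22 gave 30.5, 24.8 and 32.4 in Mutyh-/-, all below its 3 WT values. The log2 fold change was -0.62 ± 0.42 (SE, limma p = 0.147, adjusted p = 1.00, exact two-sided permutation p = 0.1, the smallest that 3 against 3 libraries allow). In Ogg1-/- it had 41.7, 14.4 and 58.4, and in DKO 27.1, 37.0 and 25.8, which overlapped WT. Rps27 and Rpl27a were likewise below all WT libraries in Mutyh-/- and Rps9 above them. These were 3 members below, where 3.61% of all peaks were, and 1 above, where 2.16% were. In Ogg1-/- 0 members separated from WT in either direction (2.83% of all peaks above, 0.855% below). In DKO Rps12, Rps18 and Rps20 were above all WT libraries (3.1% of all peaks) and 0 members below (1.92%). For Rps18, the lowest gene, that meant 9.02, 10.5 and 12.1 against 9.004 at most in WT. The 9.02 was 4 reads in DKO replicate 1, the NeuN+ library with the fewest reads in peaks (96023).

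The smallest p of a member in NeuN+ nuclei belonged to Rpl9 in DKO. It had 4.51, 39.4 and 15.9 in DKO and 29.6, 19.5 and 45.2 in WT, so the groups overlapped (log2 fold change -0.98 ± 0.52, limma p = 0.0699, adjusted p = 1.00, exact permutation p = 0.4). The 4.51 of Rpl9 was 2 reads in DKO replicate 1, the NeuN+ library with the fewest reads in peaks. Rps6 had 27.1, 45.8 and 28.8 in DKO against 43.7, 19.5 and 39.8 in WT, and Rpl5 had 29.3, 29.0 and 37.1 against 47.6, 19.5 and 38.8. Neither gene separated the groups.

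**Figure D3:**
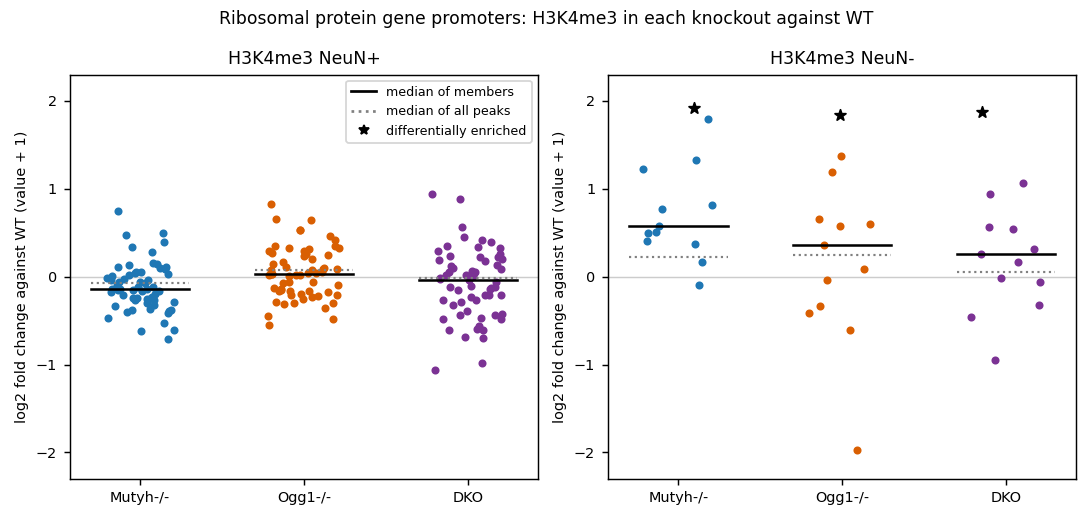
Log2 fold change of each member against WT on the log2(value + 1) scale, for NeuN+ (61 members, left) and NeuN- nuclei (13 members, right). Points are members, black lines their median, dotted lines the median of all peaks, and stars members called differentially enriched. In NeuN+ nuclei the points gather near 0 without a star, and in NeuN- nuclei they spread more widely, with Rpl6 starred in each knockout.

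In NeuN- nuclei the same rule called 2.94% of all peaks in Mutyh-/-, 3.36% in Ogg1-/- and 2.29% in DKO, and 1 of 13 members in each. That member was Rpl6, a large-subunit protein, in all 3 comparisons. Rpl6 had 0, 4.73 and 10.6 in WT, from 0 to 9 reads. It had 9.51, 19.0 and 16.3 in Mutyh-/-, 18.8, 15.2 and 8.52 in Ogg1-/- and 19.5, 8.58 and 15.6 in DKO. The highest WT library exceeded the lowest library of each knockout, so every pair of groups overlapped.

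The log2 fold change of Rpl6 was 1.92 ± 0.76 in Mutyh-/- (limma p = 0.0141), 1.84 ± 0.76 in Ogg1-/- (limma p = 0.0186) and 1.87 ± 0.76 in DKO (limma p = 0.0167), with an exact permutation p of 0.2 in each. The adjusted p was 1.00 in limma in each. All 3 values rest on the same WT libraries. Without WT replicate 1, the library without a read there, they were 0.91, 0.83 and 0.86, with limma p of 0.200, 0.244 and 0.226, and Rpl6 was not called. The edgeR and DESeq2 tests on recovered reads did not call it either. In NeuN+ nuclei, where Rpl6 had 19.3, 16.6 and 25.8 in WT, its values in Mutyh-/- (19.6, 25.7 and 18.4), Ogg1-/- (34.5, 17.4 and 43.1) and DKO (15.8, 29.0 and 20.5) overlapped WT.

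Over the 13 NeuN- members the median log2 fold change was 0.57 in Mutyh-/-, with 12 of 13 above 0, 0.37 in Ogg1-/- with 8 above 0, and 0.25 in DKO with 8 above 0. The medians of all peaks of the table also lay above 0, at 0.22, 0.25 and 0.05. Of all peaks 61.5% were above 0 in Mutyh-/-, 64.3% in Ogg1-/- and 52.8% in DKO. With TMM factors the median of all peaks was 0.01, 0.05 and 0.01. The median of the members minus that of all peaks was 0.35 in Mutyh-/-, from 0.33 to 0.55 over 14 other settings and from 0.24 to 0.69 without 1 library. In DKO it was 0.20, from 0.090 to 0.23 over the settings and from -0.032 to 0.43 without 1 library, and in Ogg1-/- it was 0.12, from -0.10 to 0.16 and from -0.045 to 0.30. The 13 members share the 3 WT libraries in all 3 comparisons, and no test was made of a score over them. Rpl5 and Rpl9 were above all WT libraries in Mutyh-/- (2 of 13, where 7.71% of all peaks were), and 0 members were below (1.53%). Rpl5 gave 17.1, 19.9 and 21.1 against 13.8, 7.88 and 11.8, and Rpl9 12.4, 7.78 and 13.0 against 1.38, 3.94 and 2.36. Neither passed the test.

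In Ogg1-/- NeuN- nuclei Rpl11 and Rps14 were above all WT libraries (6.57% of all peaks) and 0 members were below (1.71%). Rpl11 had 12.9, 13.6 and 15.6 against 11.1, 7.09 and 9.45, and Rps14 had 16.8, 12.0 and 25.6 against 8.30, 10.2 and 2.36. In DKO 0 members were above (3.36%) and Rpl10a was below (1.65%), with 10.2, 7.15 and 4.47 against 22.1, 11.03 and 11.8. None of these passed the test. The median half-width of the 95% confidence interval was 1.92 log2 units, about that of the Rpl6 change itself.

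**Figure D4:**
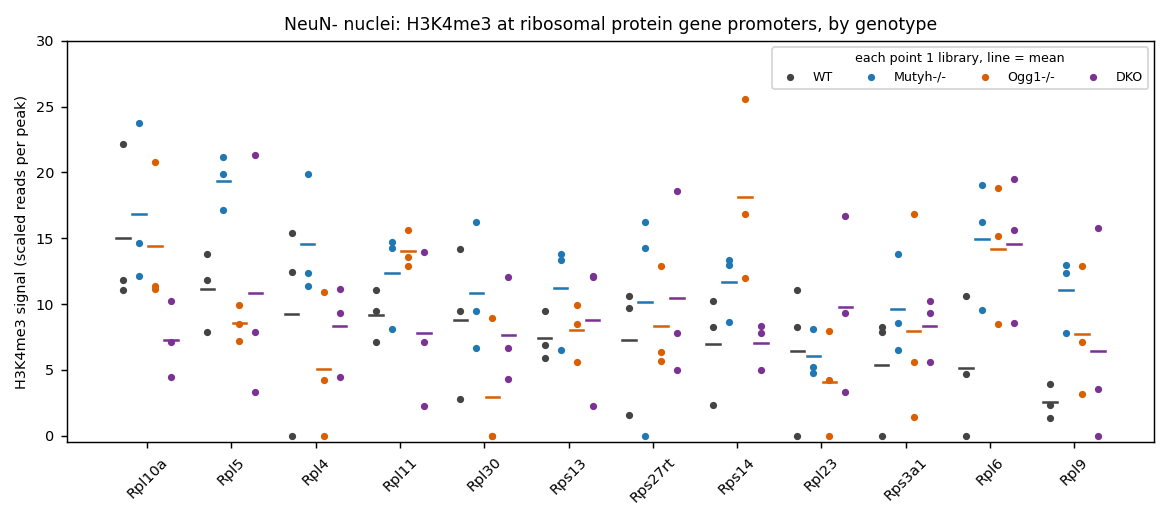
H3K4me3 signal in scaled reads per peak at 12 of the 13 members in NeuN- nuclei, ordered by WT mean, with 1 point per library and a line at the mean of 3 libraries for each genotype. Rpl6 sits at 0 to 10.6 in WT and at 8.52 to 19.5 in the knockouts, and values of 0 occur in several genes and genotypes.

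Relative to all promoters, the family kept its place in every genotype of NeuN+ nuclei. The median of the members divided by the median of all promoter peaks of the library was 1.07 ± 0.07 in WT, 1.08 ± 0.05 in Mutyh-/-, 1.08 ± 0.02 in Ogg1-/- and 1.07 ± 0.09 in DKO (SD, n = 3), and these differed by less than the spread between libraries. The members, 61 of 12628 peaks, held 0.482% to 0.552% of all reads in peaks. The median promoter itself ranged from 15.8 to 33.8 scaled reads among libraries. Ratio and share are both formed within a library, so its scale cancels and neither could follow that range. In NeuN- nuclei the ratio was 1.09 ± 0.45 in WT, 1.42 ± 0.54 in Mutyh-/-, 0.91 ± 0.08 in Ogg1-/- and 0.89 ± 0.31 in DKO, and the groups overlapped. In WT that mean of 3 ratios lay above 1 although the median of the WT means was below that of all promoters, and without WT replicate 3 (1.60) it was 0.83.

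**Figure D5:**
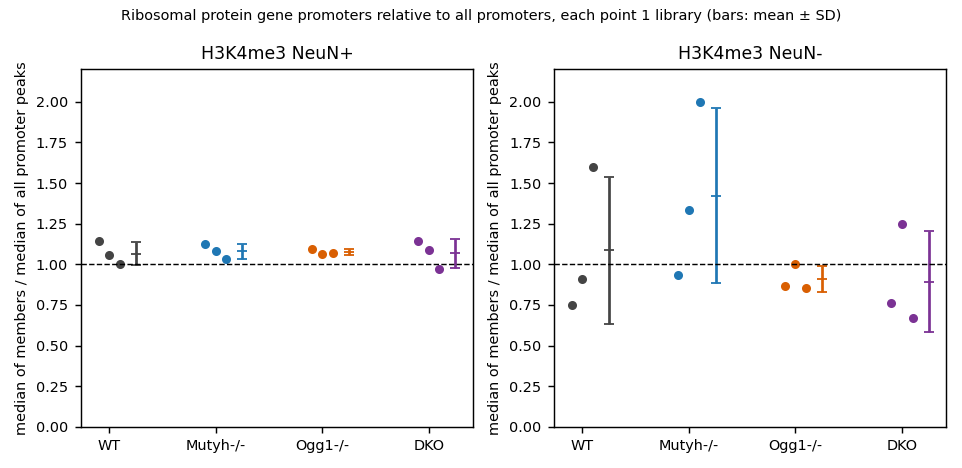
Median signal of the members divided by the median of all promoter peaks in each library, by genotype, for NeuN+ (left) and NeuN- nuclei (right). Points are libraries and bars the mean ± SD of 3. NeuN+ libraries lie between 0.971 and 1.14, and NeuN- libraries between 0.667 and 2.00.

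Whether the DKO differed from the sum of both knockouts was tested as DKO minus Ogg1-/- minus Mutyh-/- plus WT. The rule called 0.839% of all peaks in NeuN+ nuclei and 3.03% in NeuN- nuclei, and 0 of 61 and 0 of 13 members, with 0 members at an unadjusted p under 0.05 in limma. The smallest p belonged to Rps14 in NeuN- nuclei (-2.03 ± 1.03 log2 units, adjusted p = 0.994). The median over the NeuN- members was -0.76 beside -0.42 for all peaks of that table.

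Other genes of ribosome supply gave similar counts in NeuN+ nuclei. The 5 ribosomal protein genes examined outside the naming rule (Rplp0, Rplp1, Rplp2, Rpsa and Fau) all had a promoter peak, with a median WT signal of 25.6, and 0 of their 5 peaks was called in any knockout. Of 40 translation factor genes 38 had a peak (median 29.3), and Eif5b, which joins the subunits, was called lower in DKO. Of 35 ribosome biogenesis genes 29 had a peak (28.1), and Nhp2, a component of the pseudouridylation complex, was called lower in Mutyh-/-. Of 14 genes of mTORC1 and translation control 13 had a peak (30.0) and 0 was called. The 59 mitochondrial ribosomal protein peaks had a median of 24.1, and Mrpl23 was called higher in Ogg1-/-. Each of these calls had an adjusted p near 1 in limma. The same rule called 0.911% of all NeuN+ peaks in Mutyh-/-, 0.966% in Ogg1-/- and 1.46% in DKO.

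In NeuN- nuclei the 5 genes outside the rule had no promoter peak. Peaks were found for 17 translation factors, 11 biogenesis genes, 6 genes of mTORC1 and translation control and 12 mitochondrial ribosomal protein genes. Of these, Myc and Rptor alone were called, both in DKO and in opposite directions, where 2.29% of all peaks were called and the smallest adjusted p of their list in limma was 0.999.

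For H3K27me3 and Suz12 no peak centre lay within 1000 bp of the start of any of the 82 genes with a coding transcript in the GENCODE annotation used. The other 3 of the 85 genes, none of them a standard one, were not measured. The nearest H3K27me3 centres were 15813 bp from the start of Rpl28 in NeuN+ nuclei and 9818 bp from Rpl22 in NeuN- nuclei. The nearest Suz12 centres were 26506 bp from Rps13 and 212733 bp from Rpl4. The 59 and 12 mitochondrial ribosomal protein promoters with H3K4me3 peaks had no counterpart in these tables either. The tables hold called peaks, so weaker signal at these promoters was not analysed here. Genotypes could not be compared for these marks at the members.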

How the data were processed

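Nuclei were profiled by ChIP-seq (24 input libraries were not used here). Per the labels, the authors checked reads with FastQC 0.11.9, aligned them with Bowtie2 2.3.5.1 to mm10, called peaks with SICER, counted reads with DiffBind 3.10.1 and annotated peaks with ChIPseeker 1.36. The paper names epic2, not SICER, as the peak caller. Whether duplicates were removed or input reads subtracted is not given in the sources used here. The deposited signal values are reads per 401 bp consensus peak divided by 1 factor per library. Dividing by the smallest step returned whole reads for 100% of values in every library (tolerance 0.001 reads). Limma 3.58.1 (R 4.3.3) was fitted to log2(value + 1) of the 12 libraries of a table, with Benjamini-Hochberg adjustment over all peaks. edgeR 4.0.16 and DESeq2 1.42.0 were run on recovered reads. The fit was tested on simulated data. Replicate numbers were not taken to pair libraries: deviations of same-numbered libraries correlated between -0.10 and 0.12. Such correlations cannot show a shift shared by all peaks of a library. In NeuN- nuclei replicate 1 had the highest median promoter signal of each genotype (11.1 in WT, 14.3 in Mutyh-/-, 14.8 in Ogg1-/- and 15.8 in DKO). Whether replicate numbers mark a batch was not tested. The members and gene lists were chosen with earlier results of these data known. Members named were those called, the 5 highest and 5 lowest in WT of each table, and genes picked for their roles. Others (separated from WT or smallest p) were chosen after their values were seen. Distances to a start were taken to the nearest coding transcript start in GENCODE, and the gene list, sequences and motifs came from RefSeq on GRCm38.p6, in which 48 of the 61 NeuN+ members had a promoter sequence. Some members are counted but not reported by name here. Limma p-values came from a moderated test. Its spread was estimated from the 12 pooled libraries of a table and drawn toward that of peaks of similar level. The weight of those other peaks was 24.9 degrees of freedom in NeuN+ and 58.3 in NeuN- nuclei, beside 8 from the peak itself. Limma p-values therefore do not measure the spread of the 3 libraries of a group alone, and none measures the spread between animals.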

Additional observations from a re-analysis of the deposited data

Results flagged for a closer look

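Some peaks lay within 1000 bp of a ribosomal protein start but were annotated to another gene. Others were assigned to a ribosomal protein gene away from a promoter. All were outside the rule except the Rps27 peaks, which carry the name Rps27rt and are members already reported above. The peaks given here held over 3 reads in the median library. None has a control group that lacks the mark, and all values are WT means of 3 libraries in scaled reads. In H3K4me3 of NeuN+ nuclei these included 33.7 at Rpl17, 31.5 at Rpl23, 22.3 at Rpl23a, 29.0 at Rpl26, 26.5 at Rpl3, 30.3 at Rpl36al, 2.09 at Rpl41, 24.7 at Rpl7, 12.2 at Rps2, 21.9 at Rps21, 22.5 at Rps25, 29.1 at Rps27 and 18.3 at Rps27a. In H3K4me3 of NeuN- nuclei the values were 10.1 at Rpl36al, 6.44 at Rpl7 and 7.30 at Rps27. In H3K27me3 of NeuN+ nuclei 1 intergenic peak assigned to Rps29, 426934 bp from its start, had 5.73, and 2 intronic peaks assigned to Rpl34, at 168882 and 182197 bp, had 2.93 and 4.04. Another 2 H3K27me3 peaks assigned to Rps29 and Rpl34 had 1 read in the median library. The groups of 3 libraries were too small for a test of outlying libraries.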

How the results depend on the processing

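No member passed an adjusted p of 0.05 in any of the 23 alternatives (smallest adjusted p 0.508). In NeuN+ nuclei the counts of members called rose from 0 under some settings. The share of all peaks called by the same setting is given in brackets. For Mutyh-/- edgeR with TMM factors called 1 (4.01%). For Ogg1-/- limma with TMM factors (3.89%), cyclic loess (3.98%) and edgeR with TMM factors (3.97%) called 1 each. For DKO limma with TMM factors (5.57%) and cyclic loess (5.67%) called 5 (Rpl22, Rpl36, Rpl37a, Rpl9 and Rps10, 2 of them higher). There edgeR with TMM factors called 2 (3.88%), DESeq2 2 (2.81%) and edgeR with the authors' factors 1 (0.824%). For the non-additive term limma with TMM factors called 1 (4.39%), cyclic loess 1 (4.47%) and edgeR with TMM factors 2 (3.90%). In NeuN- nuclei, against 1 in each knockout, edgeR with the authors' factors called 0 in all 3, edgeR with TMM factors 0 in Mutyh-/- and DKO, and DESeq2 and the 6 libraries of the contrast 0 in Mutyh-/-. More were called in Mutyh-/- with a pseudocount of 4 (2, Rpl9 added, with 3.09% of all peaks called), in Ogg1-/- with a pseudocount of 0.5 (2, 3.12% of all peaks), limma with TMM factors (3, 5.23%), cyclic loess (3, 5.35%) and the 6 libraries alone (2, 4.07%), and in DKO with TMM factors (2, 5.60%) and cyclic loess (2, 5.35%). For Ogg1-/- in NeuN- nuclei edgeR with TMM factors (3.39% of all peaks) and DESeq2 (4.50%) each called Rpl30 in place of Rpl6. For DKO DESeq2 called Rpl10a in its place (4.34%). The non-additive term gained 1 call (Rps14) with limma with TMM factors (4.43%), and 1 with cyclic loess (4.31%). The replicate block called 3 members in NeuN- Ogg1-/- (Rpl30, Rpl6 and Rps14, with 5.50% of all peaks called) and 1 in the non-additive term (5.38%). It moved no other count, although in NeuN- Mutyh-/- it called 5.72% of all peaks, where the main fit called 2.94%. The correlations of same-numbered libraries were low, but they miss a shift of a whole library, so pairing by number is not settled. The causes were not tested.

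Without 1 library the counts ranged from 0 to 4 in NeuN+ Ogg1-/- (4 without Ogg1-/- replicate 2: Rpl19, Rpl37a, Rpl6 and Rps12, all higher, with 3.25% of all peaks called). In NeuN+ DKO they ranged from 0 to 2 (2 without WT replicate 1, 1.70% of all peaks, or DKO replicate 2, 4.04%). In the NeuN+ non-additive term they ranged from 0 to 1 (1 without Ogg1-/- replicate 2, 1.67%). In NeuN- nuclei the counts ranged from 0 to 1 in Mutyh-/- and in DKO. In NeuN- Ogg1-/- they ranged from 0 to 2 (2 without WT replicate 2, 4.68%, or DKO replicate 1, 4.10%). In the NeuN- non-additive term they ranged from 0 to 2 (2 without DKO replicate 1, 9.30%). The libraries whose removal took a NeuN- count to 0 were WT replicate 1 (Mutyh-/- and DKO), Mutyh-/- replicate 2, Ogg1-/- replicate 2 and DKO replicate 1. The median of the NeuN+ members minus that of all peaks in Ogg1-/- ranged from -0.15 (without Ogg1-/- replicate 1) to -0.022. In NeuN- Ogg1-/- that difference was 0.12 and ranged from -0.10 to 0.16 over the other settings, so its direction is not settled. Defining members by position, an alternative chosen after seeing the data, or by the standard list changed no count. In simulated DKO tables the fit called 57% of peaks changed 3-fold in NeuN- nuclei (3270 peaks) and 93% in NeuN+ nuclei (12628 peaks). It also called 4.63% and 5.48% of unchanged simulated peaks. In the data it called 2.29% and 1.46% of all peaks in DKO. The simulated spread therefore differed from that of the data, and the recovery may be lower in the data.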
